A study of Mus musculus with 12 samples.

Results

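The ZNF112 cell line was compared with T lymphomas taken from mice of the ZMYM2-FGFR1 model. The comparison used 5 of the 12 samples of the series, the single ZNF112 array and the 4 T lymphoma arrays, chosen by their labels and not by any measured value. A gene was counted only where the cell line lay outside the range of all 4 lymphomas. One lymphoma had been sorted. A gene high only in the whole tumours, such as Dcn of the stroma (log2 intensity 5.98 in the line, 6.05 in the sorted lymphoma and 12.96 to 14.19 in the others), can therefore count as below all 4 by a small margin. The comparison sets RNA of cells carried as a line beside RNA of tumours taken from mice.

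The study profiled ZMYM2-FGFR1 T lymphomas, the ZNF112 line, normal thymocytes, and stem cells from normal and leukemic mice, with 1 Affymetrix mouse genome array for each sample. ZMYM2-FGFR1 is a fusion of a zinc finger gene with the FGFR1 receptor tyrosine kinase gene. The lymphomas came from mice of the third serial transplant. In 3 of them whole tumour was used, in which most cells were GFP+ Thy1+ and positive for both CD4 and CD8. The remaining lymphoma was sorted for such GFP+ Thy1+ CD4+CD8+ cells. The strain of the mice with tumours is not in the labels. Of ZNF112 the labels say that it is an unsorted cell line. They give no strain, tumour of origin, passage or culture medium, and they do not state that it carries the fusion. ZNF112 is used here as the name of the line, not of a gene. The 3 samples of double-positive (DP) thymocytes, CD4+CD8+ Thy1+ cells sorted from pooled thymuses of normal Balb/c mice, are given beside the results as normal cells of the same stage.

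DP thymocytes are the immature T cells that rearrange their T cell receptor genes and carry both co-receptors, CD4 and CD8. ZMYM2-FGFR1 is known from a human disease of stem cells in which T lymphoma and myeloid disease occur together. A cultured line divides in medium that supplies nutrients and growth factors but not the stroma, blood vessels and immune cells of a tumour.

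The values are the log2 of the deposited intensities, and a level below is such a log2 intensity. The cell line's T cell identity was checked first against markers of T cells and of other cells. The summed linear intensity of 8 T cell markers was 39500 in the line, from 39700 to 46000 in the unsorted lymphomas and 64500 in the sorted one. The line was just under the lowest tumour, and within the list Cd3d, Cd3e, Cd3g and Thy1 were at tumour levels while Cd4, Cd8a and Cd8b1 were far below. The summed intensity of 13 macrophage markers was 2280 in the line, 3750 in the sorted lymphoma and 27400 to 59800 in the unsorted tumours. For 13 stromal and endothelial markers it was 1240, 1120 and 20400 to 39900 in the same order. The C1q genes, Col3a1 and Dcn were at or under 6.68 in both the line and the sorted lymphoma, the level of probe sets read as low. Not every marker was low. Of the 13 macrophage markers, 7 were under 6.71 in the line and 9 in the sorted lymphoma, and of the 13 stromal ones 10 and 10. Ctss was at 9.77 in the line and 11.27 in the sorted lymphoma, Lyz2 at 8.57 and 8.58, and Pdgfrb at 8.19 and 8.16. In bulk RNA, fewer cells of a type and less RNA per cell cannot be told apart. Across genes, Pearson's r of the line with the lymphomas was 0.818 to 0.888, the highest with the sorted lymphoma, and 0.863 to 0.873 with the DP arrays. These correlations are over the same genes within 1 platform and describe the arrays only.

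**Figure D1:**
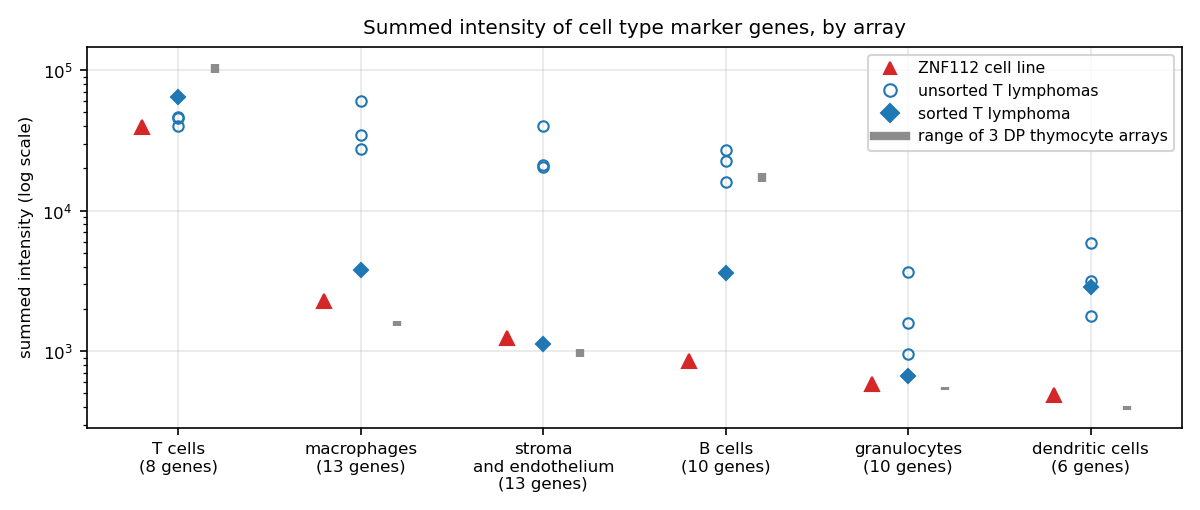
Summed linear intensity of marker genes on a log axis, for the ZNF112 line (triangle), the unsorted lymphomas (circles), the sorted lymphoma (diamond) and the range of 3 DP thymocyte arrays (bar). The line and the sorted lymphoma are both far below the unsorted tumours for macrophage markers (2280 and 3750 against 27400 or more) and stromal markers (1240 and 1120 against 20400 or more).

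The line was above all 4 lymphomas in 3396 of 11844 genes tested (28.7%) and below all 4 in 2584 (21.8%). It was at least 1 log2 unit, or 2-fold, beyond the nearest lymphoma in 341 genes above (2.88%) and 311 below (2.63%). These counts have no test, since the line is 1 array. Counts of list members above or below all 4 lymphomas, given further on, are to be read beside the shares of 28.7% and 21.8%. A gene was called where it also had an adjusted p under 0.05 in limma's moderated test, with Benjamini-Hochberg adjustment over all genes tested. The test takes its spread from the groups with replicates and assumes that the lone line array varies like them. It called 172 genes, 89 higher (0.751% of genes tested) and 83 lower (0.701%), and 0 genes with an adjusted p under 0.05 lay inside the range. The labels call the lymphomas biological replicates, but do not say whether the transplants go back to the same tumour, so the p-values measure only the spread between these samples. The number of calls depended on the arrays in the fit, which set both the spread and the residual degrees of freedom: 556 with the 8 arrays of T cells and lymphomas, and 6 with the line and the lymphomas alone. Those 6 were Slc7a3, Slc6a20a, Arhgap20 and Hunk, higher in the line, and Trgv4 and Nbdy, lower. Leaving out lymphoma 2 gave 42 higher and 45 lower calls, and leaving out the sorted lymphoma gave 207 lower calls. Of the 172 calls, 80 were kept in every fit that left out 1 lymphoma.

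A low level is one under 6.71, the median of all values of the 5 arrays. In 31 of the 89 genes called higher, all 4 lymphomas were low, and in 30 of the 83 called lower, the line was low. Such genes were tested only because the other group was above the low level, so their p-values describe these arrays and are no support. A log2 difference printed for such a gene is from a low level and is not read as a fold. Among the named genes called lower, these were Cd8b1, AW112010, Stat4, Nbdy, Glrx, Steap4, Cd44, Itga4, Dnajc15 and Il4ra. Of the calls made with the line and the lymphomas alone, Slc7a3, Slc6a20a and Arhgap20 passed only through the line. Nbdy passed only through the lymphomas. The line was above all 3 DP arrays in 86 of the 89 genes called higher, against 5267 of all 11844 genes tested. It was below all 3 DP arrays in 74 of the 83 called lower, against 4707 of all genes tested. In 6 genes called lower the line was above all 3 DP arrays, among them Trgv4, Casp1, Casp4 and Bst1. Other probe sets were counted only where at least 1 of the 5 arrays was above the low level. Among the calls, 32 higher and 40 lower genes had such a probe set. In 31 and 35 of these, such a probe set lay on the same side of all 4 lymphomas. In 0 genes did such a probe set lie on the opposite side.

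**Figure D2:**
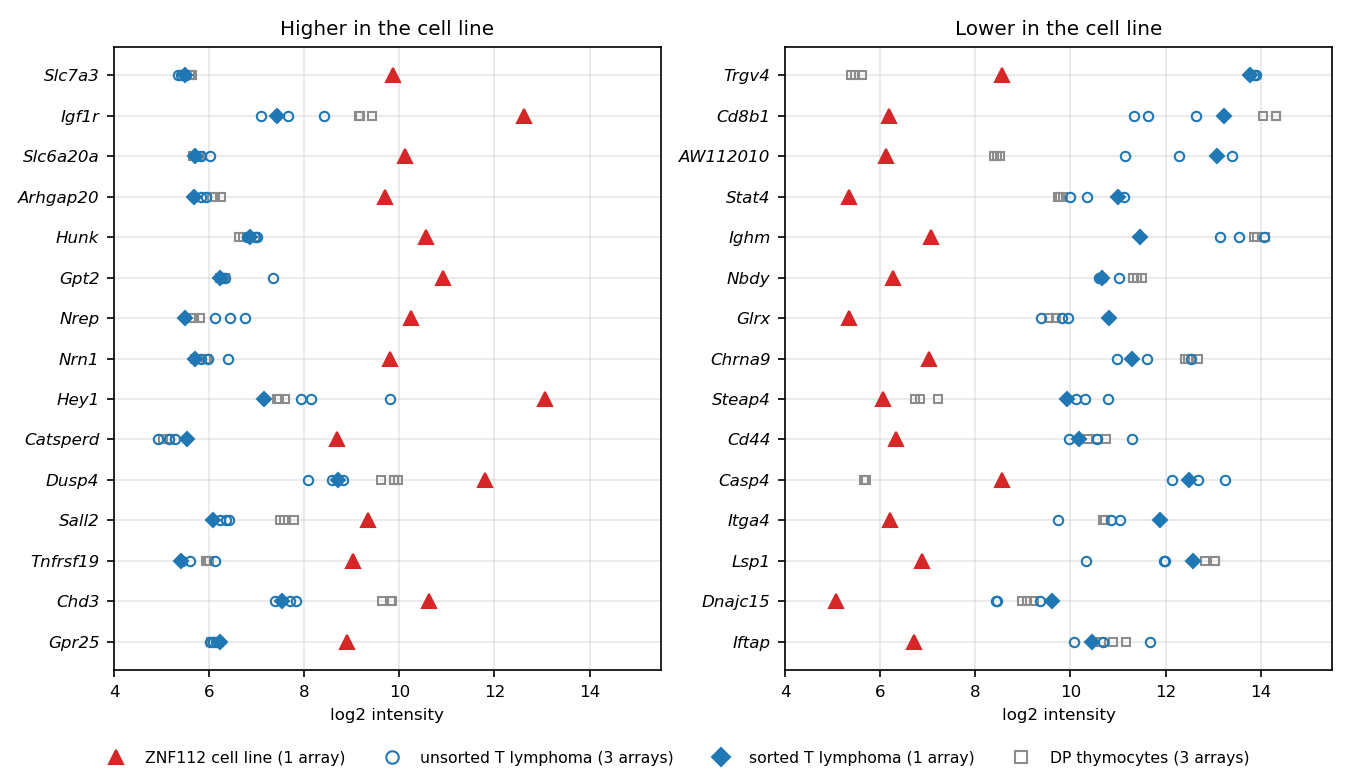
log2 intensity of the 15 genes called higher (left) and the 15 called lower (right) with the largest distance between the line and the nearest lymphoma, in each of the 5 arrays and in 3 DP thymocyte arrays. The line (triangle) is outside the range of the lymphomas (circles, diamond for the sorted one) in every gene shown, from Slc7a3 at 9.87 against 5.51 or less to Trgv4 at 8.56 against 13.78 or more.

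The co-receptors that define the DP stage were lower in the line, Cd8b1 and Cd4 with a call and Cd8a just without. Cd8b1, the beta chain of CD8, was at 6.19 in the line and at 11.34, 12.65, 11.64 and 13.22 in lymphomas 1 to 4. The line was low and every tumour high, with the sorted lymphoma the highest. The difference from the lymphoma mean was -6.03 ± 1.01 (SE; limma adjusted p = 0.0231). Cd4, the other co-receptor, was at 6.88 in the line and at 9.61, 10.75, 9.88 and 11.01 in the lymphomas. It fell by 3.44 ± 0.59 (limma adjusted p = 0.027). Both calls ended without lymphoma 2, with adjusted p of 0.0594 for Cd8b1 and 0.0612 for Cd4. Cd8a, the alpha chain, was at 8.51 in the line and at 12.67, 13.34, 12.14 and 13.58 in the lymphomas. Its difference was -4.43 ± 0.90, and it just missed the threshold (limma adjusted p = 0.0509). DP thymocytes were at 13.19 for Cd4 and 14.23 for both CD8 chains, above every lymphoma. The line thus lay outside the tumours on the side away from normal DP cells.

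Other genes of the DP stage were not called. Of 13 genes of that stage, the co-receptors included, 4 were above all 4 lymphomas, 6 below and 3 inside. The median difference was -0.20 against 0.03 over all genes tested. At least 2-fold below the nearest lymphoma were 5 (against 2.63% of all genes tested), and 0 were 2-fold above (2.88%). An unadjusted p under 0.05 was found for 5 lower and 1 higher. Without the 3 members on chromosomes 7, 10 and 15, described below, 6 of 10 were below, 1 was above and the median was -0.88. Rag1, a recombinase of receptor gene rearrangement, was at 13.64 in the line and 13.69 to 13.99 in the lymphomas. Dntt, which adds bases at the joins, was at 14.15 against 13.81 to 14.41. Both were at a high level in the line, Dntt inside the range of the tumours and Rag1 just below it. Rag2, the partner of Rag1, was lower at 7.97 against 9.24 to 10.73, but was not called (limma adjusted p = 0.215). A further list held 15 genes of the receptor complex, its first signalling steps and other T cell surface proteins. Of these, 8 were below all 4 lymphomas (against 21.8% of all genes tested), 3 above (28.7%) and 4 inside. Their median difference was -0.47, and -0.87 from the sorted lymphoma. limma called 0 of them in either direction, and 1 had an unadjusted p under 0.05. Cd3e, a chain of the receptor complex, was inside the range at 10.67 against 10.20 to 10.97. Thy1, a surface marker of T cells, was just above the tumours at 13.41 against 13.00 to 13.30, and Cd2, an adhesion receptor, was below them at 10.99 against 11.72 to 12.74 (limma adjusted p = 0.564). Cd5 and Cd6, surface proteins that damp the receptor's signal, were low in the line (5.74 and 6.35) and also in the lymphomas (5.82 to 7.18 and 6.67 to 7.68), against 13.39 and 12.44 in DP thymocytes.

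Transcripts of the T cell receptor gamma locus separated the line from the tumours in 1 of 2 variable segments. Trgv4 was at 8.56 in the line and at 13.85, 13.78, 13.90 and 13.78 in the lymphomas. The 4 tumours were nearly identical and the line far below them, yet above DP thymocytes at 5.49. The difference was -5.27 ± 0.48 (limma adjusted p = 0.00155), or 37.3-fold below the nearest lymphoma. Trgv1 was at 14.00 in the line and 14.05 to 14.28 in the lymphomas, close to the lowest of them, with DP thymocytes at 5.71. Variable segments of this locus are similar in sequence, so a probe set can read more than 1 of them. Ighm, the heavy chain of immunoglobulin M, was also called lower, at 7.06 in the line against 13.15, 13.54, 14.07 and 11.47 (limma adjusted p = 0.0163). It is a B cell marker by name, but the sorted lymphoma at 11.47 and DP thymocytes at 13.96 were high too. Of 10 B cell markers, 7 were low in the line and 8 in the sorted lymphoma. Jchain was at 5.86 in the line and 7.62 in the sorted lymphoma, and Cd22 and Ebf1 were at 6.79 and 7.11 in the line. The cells that Ighm came from were not tested. Of 5 other probe sets of Ighm with a level above the low one, 4 put the line near the sorted lymphoma and 1 far below it.

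A pair of adhesion molecules was called lower. Itga4, the alpha chain of the integrin VLA-4 that binds VCAM1 and fibronectin, was at 6.21 in the line and at 11.04, 10.85, 9.73 and 11.88 in the lymphomas. It fell by 4.66 ± 0.73 (limma adjusted p = 0.0163). Cd44, the receptor for hyaluronan, was at 6.33 against 11.29, 10.55, 9.97 and 10.17. In both genes the line was low, and every tumour and DP thymocytes (10.70 and 10.55) were well expressed. Cd44 fell by 4.17 ± 0.84 (limma adjusted p = 0.0474), and its call ended without lymphoma 1, 2 or 3, with adjusted p up to 0.104. Of 14 integrins and adhesion genes, 7 were below all 4 lymphomas (against 21.8% of all genes tested) and 1 above (28.7%). Of the 14, 2 were called lower (against 0.701%), and the median was -0.77. Itgb3 was above the tumours, at 9.53 against 6.14 to 8.77 (limma adjusted p = 0.289). Itgae, which binds E-cadherin, was at 9.31 against 10.73 to 13.04 (limma adjusted p = 0.166). Lsp1, a leukocyte protein that binds actin filaments, fell by 4.86 ± 0.69, from 10.33 to 12.58 in the lymphomas to 6.87 in the line (limma adjusted p = 0.0119).

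Stat4, AW112010, Casp1 and Casp4 were also called lower. Stat4, which carries the signal of the interleukin-12 receptor, was at 5.35 in the line and at 11.12, 10.34, 10.00 and 11 in the lymphomas, with DP thymocytes at 9.78. It fell by 5.26 ± 0.48 (limma adjusted p = 0.00155). AW112010, an interferon-inducible transcript of immune cells, was at 6.13 against 13.39, 12.28, 11.14 and 13.08 (limma adjusted p = 0.0106). Both genes were low in the line and high in every tumour, sorted or not. Casp1 and Casp4, inflammatory caspases that act in pyroptosis, were lower but above the low level in the line. Casp1 was at 9.39 in the line and at 12.12, 11.98, 11.95 and 11.70 in the lymphomas (limma adjusted p = 0.022). Casp4 was at 8.56 and at 13.25, 12.13, 12.68 and 12.50 (limma adjusted p = 0.0441). DP thymocytes were at 5.68 and 5.69, so the line lay between normal DP cells and the tumours for both. The call of Casp1 ended without lymphoma 2 (adjusted p = 0.0569) and that of Casp4 without lymphoma 1, 2 or 3 (adjusted p up to 0.0809). Of 6 inflammasome genes tested, 2 were called lower (against 0.701% of all genes tested) and 3 were below all 4 lymphomas (21.8%). The median was -1.52, but against the sorted lymphoma alone it was -0.33.

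Among the receptors of the common gamma chain cytokines, 4 of 6 were below all 4 lymphomas (against 21.8% of all genes tested) and 0 above. The median was -1.5. Il4ra, the interleukin-4 receptor alpha chain, fell by 2.67 ± 0.54, from 8.47, 7.91, 7.04 and 8.64 in the lymphomas to 5.34 in the line (limma adjusted p = 0.049), a call that ended without lymphoma 1 or 2 (adjusted p up to 0.102). Its 2 other probe sets put the line inside the range of the lymphomas. Il7r, the interleukin-7 receptor, was at 7.06 in the line and at 13.16, 10.98, 13.10 and 10.15 in the lymphomas. The line was 3.09 below the nearest tumour, but the tumours differed widely and it was not called (limma adjusted p = 0.0712). Il2ra, the high-affinity interleukin-2 receptor chain, stayed at 13.26 against 13.29 to 13.73, with DP thymocytes at 6.37. Of 11 NF-kB targets, 7 were below all 4 lymphomas (against 21.8% of all genes tested) and 0 above, with a median of -0.71. limma called 0 of them, 2 had an unadjusted p under 0.05, and Birc3 was the nearest to a call at 10.36 against 11.33 to 12.48 (limma adjusted p = 0.148).

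Nbdy, which encodes a microprotein of the messenger RNA decapping complex, was at 6.26 in the line and at 10.59, 10.66, 11.03 and 10.67 in the lymphomas. The lymphomas lay close together and the line was low, so the gene was tested through the lymphomas alone (limma adjusted p = 0.000227). Bst1, an enzyme on the cell surface that cleaves NAD, fell from 12.38, 11.35, 10.34 and 11.31 to 7.07 (limma adjusted p = 0.0243; 0.0597 without lymphoma 2). Bst1 was one of 6 dendritic cell markers, of which 4 were low in the line and 4 in the sorted lymphoma, among them Itgax at 5.69 in the latter. For Bst1 the sorted lymphoma was as high as the unsorted ones. Steap4, a metal reductase, was at 6.05 against 9.93 to 10.79 (limma adjusted p = 0.00346). Pfkp, the platelet form of phosphofructokinase, was the 1 called gene of 12 in glycolysis, at 8.23 against 10.43 to 12.43 (limma adjusted p = 0.0287; 0.0683 without lymphoma 2), whereas 5 of those 12 were above all 4 lymphomas. The remaining genes of the 15 were Glrx, a glutaredoxin, Chrna9, a nicotinic receptor subunit, Dnajc15, a mitochondrial co-chaperone, and Iftap, linked to cilia, which were 3.36 to 4.03 below the nearest lymphoma. The calls of Glrx and Dnajc15 ended without lymphoma 2 (adjusted p = 0.0569 and 0.053).

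Among the genes higher in the line, Slc7a3, a transporter of arginine and lysine, came first by distance. It was at 9.87 in the line and at 5.51, 5.34, 5.40 and 5.49 in the lymphomas, with DP thymocytes at 5.62. It was low in every one of the 8 T cell arrays but the line's, so it was tested through the line alone (difference 4.43 ± 0.49, limma adjusted p = 0.00368). Slc6a20a, a transporter of proline, was likewise low in all 4 lymphomas, at 10.12 against 6.03, 5.73, 5.83 and 5.71 (limma adjusted p = 0.000287). Gpt2, the mitochondrial alanine aminotransferase, was at 10.92 against 7.35, 6.28, 6.34 and 6.22 (limma adjusted p = 0.00164), and its 3 other probe sets with the line above the low level also had the line above all 4. With probe sets that may read more than 1 transcript left out, Gpt2's difference was 1.69 and it was not called. These 3 genes handle amino acids and are not members of the list of the amino acid response described below.

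Igf1r, the receptor tyrosine kinase for insulin-like growth factors, was at 12.63 in the line and at 8.41, 7.10, 7.67 and 7.43 in the lymphomas. DP thymocytes were at 9.25, so the line was above the normal cells and the lymphomas below them. The difference was 4.98 ± 0.71 (limma adjusted p = 0.0118), and 3 other probe sets of Igf1r also placed the line at least 3.14 above the nearest lymphoma. Dusp4, a phosphatase that removes the activating phosphates of ERK, was at 11.80 against 8.82, 8.09, 8.58 and 8.71 (limma adjusted p = 0.0392). Its call ended without lymphoma 1, 2 or 3 (adjusted p up to 0.0889) and with each chromosome centred. Of 12 genes of receptor kinase and ERK feedback, Dusp4 included, 4 were above all 4 lymphomas, 2 below and 6 inside, and the median was 0.25.

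Hey1, a repressor that is a target of Notch, was at 13.06 in the line and at 8.14, 7.94, 9.81 and 7.15 in the lymphomas, with DP thymocytes at 7.5. It was higher by 4.80 ± 0.76 (limma adjusted p = 0.0181; 0.0523 without lymphoma 2). It was the 1 called member of 17 genes of the Notch pathway. Of the 17, 5 were above all 4 lymphomas, 4 below and 8 inside, with a median of -0.18. These counts are near the shares over all genes tested, 28.7% above and 21.8% below. Notch1 itself was at 14.19 against 13.75 to 14.20. Notch3 was at 10.60 against 10.76 to 11.94 (limma adjusted p = 0.411) and Dtx1, another Notch target, at 11.43 against 12.19 to 13.80 (limma adjusted p = 0.236). Hes1, a target that also encodes a repressor, was at 10.47 against 9.84, 7.41, 8.59 and 7.18 (limma adjusted p = 0.354). The targets lay on both sides of the tumours, and Notch1 lay inside their range by this probe set. Another probe set of Notch1 put the line above all 4, at 12.12 against 11.12 to 11.50. So did another of Dtx1, at 7.92 against 6.58 to 7.58. For Notch3 the other probe set kept the line below, at 8.44 against 8.50 to 9.54.

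Several of the other genes higher in the line are best known outside T cells. All 4 lymphomas were low in Nrn1, Catsperd, Arhgap20, Sall2, Tnfrsf19 and Gpr25, which were tested through the line alone. Nrn1, a neuritin of nerve cells, was at 9.81 against 5.71 to 6.40 (limma adjusted p = 0.000623), Nrep, a neuronal protein, at 10.25 against 5.50 to 6.75 (limma adjusted p = 0.0116), and Catsperd, a subunit of the sperm calcium channel, at 8.68 against 4.92 to 5.54 (limma adjusted p = 0.000486). Hunk, a protein kinase, was at 10.57 against 6.79 to 7.0 (limma adjusted p = 0.000207), and Arhgap20 at 9.70 against 5.68 to 5.93 (limma adjusted p = 0.000171). In these 5 genes every DP array was at 6.96 or less, so the line stood alone among the 8 arrays of T cells. Sall2, a zinc finger factor, and Chd3, a remodelling ATPase of the NuRD complex, differed in that DP thymocytes (7.62 and 9.77) were also above the lymphomas (at most 6.41 and 7.82). Tnfrsf19, a receptor of the tumour necrosis factor family, was at 9.03 against 5.42 to 6.12, but the probe set chosen by the mean over 12 arrays gave a difference of 1.47 and no call. Gpr25, an orphan receptor, was at 8.91 against 6.03 to 6.22 (limma adjusted p = 0.0116).

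Sterol and fatty acid synthesis was the list with the most called genes. Of 19 members tested, 5 were called higher (against 0.751% of all genes tested). Of the 19, 17 were above all 4 lymphomas (28.7%) and 0 below (21.8%), and 10 were at least 2-fold above the nearest (2.88%). The median difference was 1.65 against 0.03 over all genes tested. It was 1.60 against the sorted lymphoma alone. Sqle, which makes squalene epoxide, was at 12.83 in the line and at 9.47, 10.01, 10.04 and 10.23 in the lymphomas (difference 2.89 ± 0.34, limma adjusted p = 0.00532). Cyp51, which removes a methyl group from lanosterol, was at 11.41 and at 8.11, 8.62, 8.83 and 8.53 (difference 2.88 ± 0.40, limma adjusted p = 0.0115). The line stood apart while the lymphomas lay close together, near DP thymocytes (9.54 and 7.69). Lss, lanosterol synthase, Fasn, fatty acid synthase, and Nsdhl, of the later sterol steps, were also called, higher by 2.10 ± 0.32, 2.14 ± 0.39 and 1.70 ± 0.33. The call of Fasn ended without lymphoma 2 (adjusted p = 0.0569), that of Nsdhl without lymphoma 1, 2 or 3 (adjusted p up to 0.0953), and that of Lss with shared probe sets left out. Dhcr7 and Fdps, not called, were at 11.84 against 9.09 to 10.70 (limma adjusted p = 0.138) and at 10.80 against 8.23 to 8.86 (limma adjusted p = 0.116). The desaturase Scd1 had no such pattern, at 7.29 in the line and 9.80, 11.50 and 11.41 in the unsorted lymphomas, but the sorted lymphoma was at 5.83, lower than the line.

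SREBP factors switch on sterol genes through sterol regulatory elements. One such form, TCACNCCAC, was searched on both strands from 250 bases before to 50 bases after the start of each gene in RefSeq's promoters (build GRCm38.p6). It was found in 1 of the 14 sterol and fatty acid genes with an entry, Hmgcs1, and in 1.24% of all 32851 promoters. Hmgcs1, which makes the precursor of mevalonate, was at 13.36 in the line and at 11.60, 11.88, 11.40 and 11.95 in the lymphomas (limma adjusted p = 0.114). Its 250 bases before the start, shown 5′ to 3′ because it is the 1 list member with the motif, hold it in capitals, beginning 137 bases before the start.
Hmgcs1, chr13:119690101-119690350, + strand: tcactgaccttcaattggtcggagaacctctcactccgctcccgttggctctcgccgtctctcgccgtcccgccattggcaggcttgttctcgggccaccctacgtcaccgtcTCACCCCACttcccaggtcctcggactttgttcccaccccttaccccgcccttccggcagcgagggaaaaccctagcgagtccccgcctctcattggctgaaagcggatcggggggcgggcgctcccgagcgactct

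Genes of the amino acid response and of serine synthesis were also high in the line. Of 19 tested, 15 were above all 4 lymphomas (against 28.7% of all genes tested) and 0 below (21.8%). At least 2-fold above were 9 (2.88%), and the median was 1.43. Only Atf5, a factor of this response, was called: it was at 11.11 in the line and at 8.41, 8.52, 8.69 and 8.43 in the lymphomas (difference 2.60 ± 0.40, limma adjusted p = 0.015). Asns, asparagine synthetase, was at 13.01 against 10.36, 8.39, 10.99 and 8.55 (difference 3.44 ± 1.00, limma adjusted p = 0.167). Chac1, which degrades glutathione, was at 8.93 against 6.52, 5.90, 6.22 and 6.0 (limma adjusted p = 0.252). Trib3, a pseudokinase of the response, was at 10.69 against 8.59, 7.33, 8.66 and 8.77 (limma adjusted p = 0.475). The line was the highest of the 5 arrays in all 4 genes, and for Asns the tumours themselves spread widely, with DP thymocytes at 6.44. Shmt2, Psat1 and Phgdh, of serine and glycine synthesis, were at 13.06, 12.62 and 13.10, above the highest lymphoma by 1.99, 1.14 and 1.05. Psph, of the same pathway, was inside the range at 10.60, as were Slc7a11 and Nupr1.

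ATF4 binds composite elements in the promoters of such genes. The form TGATGNAA was searched on both strands in the same windows. It was found in 5 of the 18 members with an entry (Asns, Chac1, Trib3, Nupr1 and Slc7a11) and in 3.97% of all promoters. Of these 5, the line was above all 4 lymphomas for the first 3 and inside their range for Nupr1 (9.64 against 5.99 to 11.62) and Slc7a11 (6.68 against 6.06 to 7.42). Asns and Chac1, the members with the largest differences, are shown as the 250 bases before the start, 5′ to 3′, with the motif on either strand in capitals. It begins 23 bases before the start in Asns and 193 in Chac1.
Asns, chr6:7693210-7693459, - strand: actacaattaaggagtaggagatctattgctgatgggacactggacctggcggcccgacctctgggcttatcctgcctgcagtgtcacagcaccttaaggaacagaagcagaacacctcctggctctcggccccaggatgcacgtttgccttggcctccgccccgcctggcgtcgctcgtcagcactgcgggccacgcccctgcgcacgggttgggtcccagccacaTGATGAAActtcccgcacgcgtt
Chac1, chr2:119350992-119351241, + strand: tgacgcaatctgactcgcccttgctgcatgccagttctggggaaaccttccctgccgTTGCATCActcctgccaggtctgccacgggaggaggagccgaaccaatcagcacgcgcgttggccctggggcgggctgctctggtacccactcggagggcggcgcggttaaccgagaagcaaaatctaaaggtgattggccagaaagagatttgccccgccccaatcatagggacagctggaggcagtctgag

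**Figure D3:**
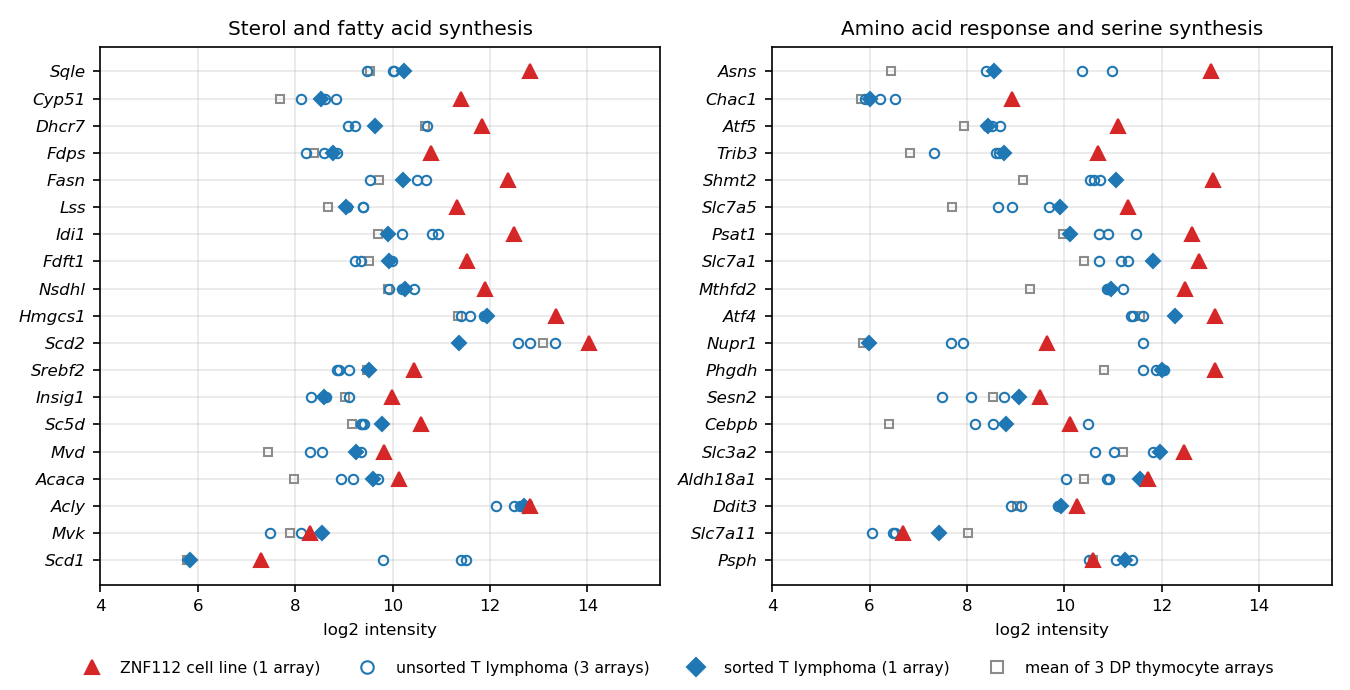
log2 intensity of the 19 tested genes of sterol and fatty acid synthesis (left) and the 19 of the amino acid response and serine synthesis (right) in the line (triangle), the unsorted lymphomas (circles), the sorted lymphoma (diamond) and the mean of DP thymocytes (square). The line is right of all 4 lymphomas in 17 and 15 of them, and Scd1, with the sorted lymphoma at 5.83 and the unsorted at 9.80 or more, has the widest tumour range on the left.

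Cell cycle genes were above the tumours almost throughout, and 1 was called. Of 22 DNA replication genes, 21 were above all 4 lymphomas, with a median of 1.20. Of 17 mitosis genes, all 17 were, with a median of 1.17. limma called 0 genes of both lists in either direction, while 13 and 6 had an unadjusted p under 0.05, each of them higher. The nearest to a call was Tyms, thymidylate synthase, at 10.06 in the line and at 6.81, 7.20, 7.97 and 7.87 in the lymphomas (difference 2.59 ± 0.53, limma adjusted p = 0.0509). Plk1, a kinase of mitosis, was at 11.32 against 9.34, 9.07, 8.24 and 9.58 (limma adjusted p = 0.164), and Mki67, a marker of dividing cells, at 14.21 against 12.88 to 13.38 (limma adjusted p = 0.438). For most of these genes DP thymocytes were at the level of the lymphomas, as with Mki67 at 13.16.

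Of the 14 G1 cyclins, kinases and E2F factors, 11 were above all 4 lymphomas and 0 below, with a median of 1.66. E2f2, an activator of replication genes, was called, at 10.56 against 9.17, 8.33, 8.45 and 8.65 (limma adjusted p = 0.0485), a call that ended without lymphoma 2, 3 or 4 (adjusted p up to 0.104). DP thymocytes were higher still, at 12.69. E2f8 was at 11.88 against 9.19 to 9.92 (limma adjusted p = 0.328) and Ccne2, cyclin E2, at 9.93 against 7.10 to 8.77 (limma adjusted p = 0.356). Ccnd2, cyclin D2, was inside the range at 12.15, since lymphoma 1 was at 12.19 and the sorted lymphoma at 7.66. Of the inhibitors, Cdkn2a was at 10.10 in the line and at 11.23, 8.90, 10.34 and 6.12 in the lymphomas, and Cdkn2b at 9.40 against 11.71, 10.52, 9.78 and 11.46 (limma adjusted p = 0.465). Both were above DP thymocytes (5.97 and 7.09).

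Mycn, a MYC family factor, was called higher at 14.09 in the line and at 12.85, 12.30, 12.35 and 12.71 in the lymphomas, with DP thymocytes at 8.20 (difference 1.53 ± 0.31, limma adjusted p = 0.0466). Its call ended without lymphoma 1, 2 or 3 (adjusted p up to 0.101), and its 2 other probe sets read low in the line, 1 with the line inside the range at 6.18 and 1 with it above all 4 at 5.82. Myc was at 11.77 against 10.54, 10.19, 10.03 and 10.56, above all 4 and not called (limma adjusted p = 0.138). Of 18 genes of ribosome biogenesis and known MYC targets, 16 were above all 4 lymphomas, 0 were below and the median was 0.92. limma called 0 of them, and 5 had an unadjusted p under 0.05. Bop1 and Cad had the largest differences of these, 1.53 (limma adjusted p = 0.297) and 1.51 (limma adjusted p = 0.195). The DNA methyltransferases Dnmt1 and Dnmt3b were called, at 13.19 against 11.71 to 11.95 and 12.19 against 10.46 to 11.02 (limma adjusted p = 0.0437 and 0.0441). Dnmt1's call ended without any 1 of the 4 lymphomas (adjusted p 0.0507 to 0.0889) and Dnmt3b's without lymphoma 1, 2 or 3 (adjusted p up to 0.103). Uhrf1, which recruits Dnmt1, was at 13.49 against 10.97 to 12.32 (limma adjusted p = 0.195), whereas Ezh1 of the Polycomb group was below the tumours at 9.04 against 9.97 to 11.22 (limma adjusted p = 0.25).

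**Figure D4:**
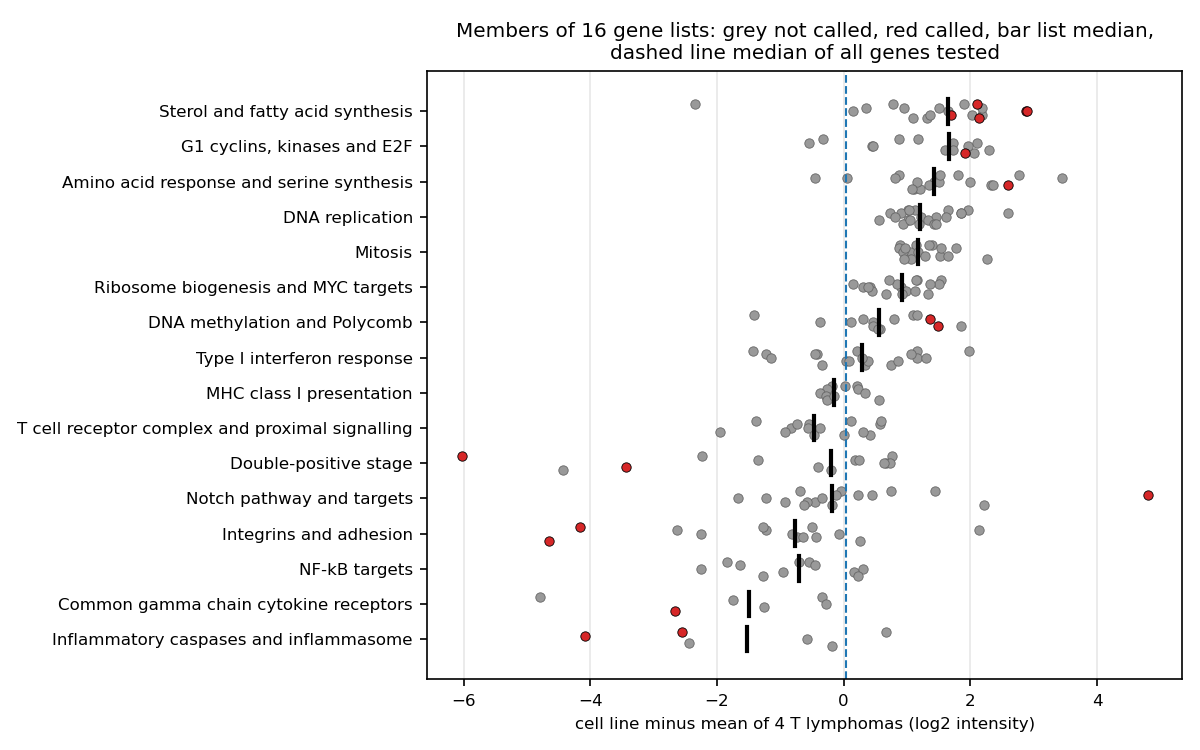
Difference on the log2 scale between the line and the mean of 4 lymphomas for each tested member of 16 lists (points, red where called), with the list median (bar) and the median of all genes tested, 0.03 (dashed line). Sterol synthesis, G1, amino acid response, replication and mitosis have medians between 1.17 and 1.66, and the lower lists hold single called genes far from their median, such as Cd8b1 at -6.03 and Hey1 at 4.80.

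Several genes that bear on these tumours were not called. Fgfr1 was at 6.93 in the line and at 7.11, 6.09, 6.0 and 5.43 in the lymphomas, and Zmym2 at 11.30 and at 10.97, 11.55, 11.29 and 11.95. Both were inside the range, but whether these probe sets read the fusion transcript is not given in the sources used here. Bcl2, which blocks cell death, was at 13.61 against 13.58 to 14.09, with DP thymocytes at 11.52. Of 18 T lineage transcription factors 6 were above (against 28.7% of all genes tested) and 3 below (21.8%). limma called 0, 4 had an unadjusted p under 0.05, and Gata3 was the nearest to a call at 11.46 in the line against 8.73, 9.12, 8.62 and 9.85 (limma adjusted p = 0.0563) and at 11.37 in DP thymocytes. Lif, a cytokine, was at 11.49 against 8.27, 9.56, 8.33 and 9.64 (limma adjusted p = 0.0544). Type I interferon genes (19 tested, median 0.29) and class I presentation genes (11 tested, median -0.15) had 0 members called by limma in either direction, 2 and 0 had an unadjusted p under 0.05, and 13 and 6 of them lay inside the range. Over all genes, 1515 had an unadjusted p under 0.05. The Y-linked Eif2s3y was at 11.94 in the line and at 12.49, 11.94, 12.55 and 12.42 in the lymphomas, high in all 5 arrays. Xist, the RNA of the inactive X chromosome in females, was at 6.46 in the line and at 11.46, 7.08, 6.92 and 6.42 in the lymphomas. Lymphoma 1 thus held both transcripts, and the part of this in its other values was not tested; without it 65 genes were called higher and 71 lower.

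For lists of genes of other cells, the sorted lymphoma set the limit. The 6 genes of class II presentation had a median difference of -3.62 from all lymphomas but -0.42 from the sorted one. H2-Aa was at 6.71 in the line, 7.38 in the sorted lymphoma and 12.03 to 12.72 in the others. For 12 macrophage markers tested the medians were -2.93 and 0.02, and for 13 stromal and endothelial markers -1.66 and 0.13, with 0 called by limma in either list and 1 in each at an unadjusted p under 0.05. Of the macrophage markers 6 were below all 4 lymphomas and of the stromal ones 3, with 0 above in both. Bnip3, a hypoxia gene, was at 7.63 in the line, 9.67 in the sorted lymphoma and 10.44 to 10.80 in the others (limma adjusted p = 0.465), and the median of 12 hypoxia genes was -0.12.

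Expressed genes of chromosomes 7, 10 and 15 were higher in the line as a whole. Among genes with a mean level above 9, the median difference from the lymphomas was 0.51 for 424 genes of chromosome 7, 0.37 for 337 of chromosome 10 and 0.49 for 261 of chromosome 15. The other 17 chromosomes had medians of -0.14 to 0.10. The line was above all 4 lymphomas in 57.5%, 44.5% and 57.9% of these genes, against 20.1% to 29.8% on the other chromosomes. Measured against DP thymocytes, the line's medians on the 3 chromosomes were 0.30 to 0.37 and elsewhere -0.19 to -0.04, while the lymphomas' were -0.27 to 0.05 on the 3. The sorted lymphoma alone gave medians of 0.27 to 0.34 for the line on the 3 chromosomes. DNA copy number was not measured, and a cause of these shifts was not tested.

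**Figure D5:**
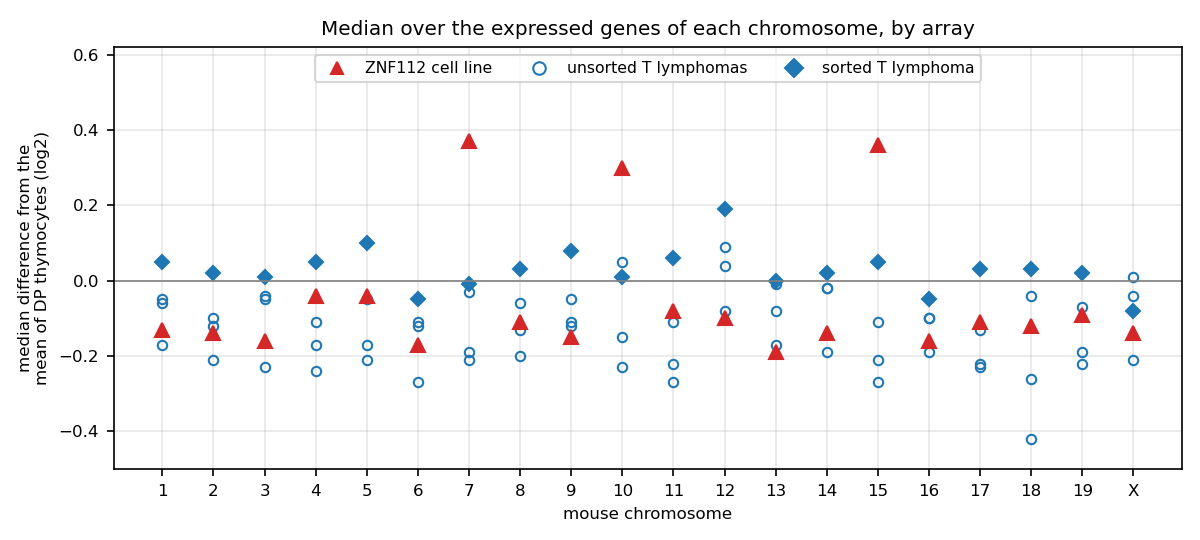
Median over the expressed genes of each chromosome of the difference from the mean of DP thymocytes (log2 intensity), for the line (triangle), the unsorted lymphomas (circles) and the sorted lymphoma (diamond). The line is at 0.37, 0.30 and 0.36 on chromosomes 7, 10 and 15, above every lymphoma there, and at -0.19 to -0.04 on the other chromosomes.

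With genes put in order along each chromosome and split into 6 equal parts, all 6 parts of chromosome 7 had medians of 0.41 to 0.60 and all 6 of chromosome 15 of 0.38 to 0.74. On chromosome 10 the first 2 parts were at 0.10 and 0.01, and the other 4 at 0.43 to 0.61. The 102 parts of the other chromosomes ranged from -0.42 to 0.24. Of the 89 genes called higher, 27 were on these 3 chromosomes, 1.39% of their genes tested against 0.628% elsewhere. Among them are Igf1r and Atf5 on chromosome 7, Lss on chromosome 10 and Sqle on chromosome 15, whose differences are several times the chromosome's median. Left without their members on these 3 chromosomes, the lists had medians as follows. The median was 1.5 for the 15 remaining sterol genes and 1.36 for the 14 of the amino acid response. It was 1.12 for 19 replication genes, 1.10 for 14 mitosis genes and 1.30 for 8 of G1. For the 10 remaining genes of the DP stage it was -0.88, against -0.20 for all 13. Cdk4, of G1, lies on chromosome 10 and was at 13.64 against 11.46 to 12.65 (limma adjusted p = 0.107). With each array centred on each chromosome, a step added after these medians were seen, 141 genes were called, 138 of them among the 172.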

How the data were processed

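RNA was measured on Affymetrix mouse arrays, 1 for each of 12 samples. The authors deposited probe set intensities on the linear scale, and the submitters' processing notes name RMA without a version; log2 was taken again here. Array medians were 99.2 to 109 for the 8 T cell arrays and 44.2 to 46 for the 4 stem cell arrays, so the sides look normalized apart, and every difference here is within 1 side. Of 45101 probe sets, 34945 had 1 gene symbol. Of a gene's probe sets, the one brightest on average in the 5 compared arrays stood for it (18193 genes), and 11844 genes with at least 1 of the 5 above log2 6.71 were tested; 192 of these passed only through the line. Group means over all 12 arrays were fitted with limma 3.58.1 in R 4.3.3 (lmFit, eBayes, 7 residual degrees of freedom), tested on simulated data. Root mean square SDs over genes were 0.154 for DP thymocytes, 0.665 for lymphomas, 0.555 for HSC and 1 for LSC. A call needed an adjusted p under 0.05 and a value outside the 4 lymphomas.

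Genes were named by rule: the 15 higher and 15 lower calls farthest from the nearest lymphoma, every called member of 50 gene lists (529 of 644 names tested), 14 fixed genes, and up to 4 members of each list with the largest difference; other names were chosen after their values were seen. The members and lists were chosen with earlier results of these data known. The genome build is not given in the sources used here; promoters are RefSeq's. Arrays hold no read depth, and their number limits the precision.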

Additional observations from a re-analysis of the deposited data

Results flagged for a closer look

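Of 110 genes named in the text, 8 had a single lymphoma far from the other 3, and chance gives such a value in about 1 of 20 groups. The sorted lymphoma was the one apart in 3 of them: Dcn was at 6.05 against 12.96 to 14.19 in the whole tumours, H2-Aa at 7.38 against 12.03 to 12.72, and Dntt at 14.41 against 13.81 to 13.83. Lymphoma 1 was apart for Xist, at 11.46 against 6.42 to 7.08, and for Gpt2, at 7.35 against 6.22 to 6.34 and still below the line at 10.92. Lymphoma 2 was apart for Trib3, at 7.33 against 8.59 to 8.77, and for Trgv1, at 14.05 against 14.25 to 14.28. Lymphoma 3 was apart for Bop1, at 9.18 against 10.12 to 10.17.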

How the results depend on the processing

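The number of calls depended on the arrays in the fit, which set both the spread and the residual degrees of freedom. Against 89 higher and 83 lower calls, the 8 T cell arrays alone gave 307 and 249, the fit without the LSC arrays 215 and 199, and the 5 compared arrays 4 and 2. Without 1 lymphoma the higher calls ranged from 42 to 112 and the lower from 45 to 207, and 35.1% of calls were higher without lymphoma 4, against 51.7%. With the sorted lymphoma as its own group 49 and 62 were called. Genes at least 2-fold beyond the tumours were 341 above and 311 below. They were 1194 and 1354 beyond the sorted lymphoma alone, and those below ranged from 351 to 777 without 1 lymphoma. A 1.5-fold distance gave 881 and 678, and a 4-fold one 40 and 100. Fewer arrays in the range or a smaller distance let more genes through by construction; for the rest the cause was not tested. Of the 45 named genes called, 27 were kept in all 4 fits without 1 lymphoma, and 0 changed sign in any setting. Among genes inside the range, Zmym2 turned to 0.03 without replicate 4. Without 1 lymphoma, Cdkn2a ranged from -0.06 (replicate 4 left out) to 1.65 and Cd3e from -0.01 (replicate 3) to 0.25. Cd3e turned to -0.30 against the sorted lymphoma and Notch1 to -0.01 against it. No paired analysis was possible because the line is 1 array and has no replicate number. With 1 array of the line, its own spread is unknown, and no result can separate this line from lines in general.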
